A study of Mus musculus with 4 samples.

Results

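The genes of the cytosolic ribosomal proteins were followed across 4 antipsychotic drugs in mouse frontal cortex. They were taken as every gene whose platform symbol begins with Rpl or Rps and a digit, or is Rplp0, Rplp1, Rplp2 or Rpsa, without the kinases named Rps6k and without pseudogenes. This rule uses names only and no measured value. It found 72 genes on 77 features (the spots of the array) among 16504 genes with 1 symbol, and all 72 had a ratio on all 4 arrays. Of these, 45 encode proteins of the large subunit or their paralogues and 26 those of the small subunit. The last, Rps19bp1, encodes a binding partner of a ribosomal protein and no subunit, so it was kept out of the comparison of subunits.

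The study compared chlorpromazine, thioridazine, olanzapine and quetiapine with vehicle, and its title gives the sorting of such drugs by cortical gene expression as the aim. Male mice of the outbred ddY stock, 13 weeks old, were injected into the peritoneum once a day for 28 days, with vehicle or with drug. The daily dose was 25 mg/kg of chlorpromazine or of thioridazine, 1.25 mg/kg for olanzapine and 18.75 mg/kg for quetiapine. Every drug has 1 two-colour array, with vehicle RNA in cyanine 3 and drug RNA in cyanine 5 and no dye swap. The number of mice behind an array, and whether a single vehicle RNA was used on all of them, is not stated in the labels used here.

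Each value is therefore a ratio with no replicate for its drug, given below as log2 of drug over vehicle, so that 0 means equal signal and 1 a doubling. The table states neither scale nor direction. Drug over vehicle is the likely direction from the dyes, and log10 the likely deposited scale; with the opposite direction every sign below would turn. Were the deposited values log2 already, every ratio below would shrink by the same factor, so that the lowest mean, -0.47 for Rps2, would be -0.14. The table holds ratios and no signal, so the level of a gene and the tissue's defining markers could not be checked, nor could dim spots be told from bright ones. In bulk tissue, fewer cells of a type and less RNA per cell cannot be told apart.

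Ribosomal proteins coat the ribosomal RNA of the large and the small subunit, which join to translate messenger RNA. The large subunit forms peptide bonds and releases the growing chain through an exit tunnel, while the small subunit holds the messenger RNA and reads its codons. The proteins are made in near-equal amounts. Their messenger RNAs are abundant, and most begin with a run of pyrimidines, the terminal oligopyrimidine tract, through which the mTOR kinase and the protein Larp1 set their translation. In neurons, ribosomes also sit in dendrites and axons, where ribosomal protein messenger RNAs are found as well.

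The sequence around the annotated start of these genes was searched for pyrimidine runs. The 60 bases from 40 before the start to 20 after it are shown for 6 members whose mean ratios, among members with a sequence, lay near the ends of the range. They are from RefSeq (GRCm38.p6), written 5′ to 3′ on the gene's strand, and the capitals mark the longest run of C and T within 20 bases of the start. Rps2, Rpl7l1 and Rpl27a had low mean ratios, and Rpl41, Rpl14 and Rpl38 high ones.
Rps2, chr17:24720023-24720082, plus strand: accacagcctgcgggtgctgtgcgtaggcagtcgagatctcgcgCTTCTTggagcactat
Rpl7l1, chr17:46782637-46782696, minus strand: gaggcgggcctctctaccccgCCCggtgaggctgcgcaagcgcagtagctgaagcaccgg
Rpl27a, chr7:109519155-109519214, plus strand: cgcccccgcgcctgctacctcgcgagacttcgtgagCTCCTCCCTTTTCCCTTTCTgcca
Rpl41, chr10:128549149-128549208, minus strand: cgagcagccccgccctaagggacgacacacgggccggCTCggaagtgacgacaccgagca
Rpl14, chr9:120571477-120571536, plus strand: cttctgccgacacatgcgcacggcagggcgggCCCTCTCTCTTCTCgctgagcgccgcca
Rpl38, chr11:114668540-114668599, plus strand: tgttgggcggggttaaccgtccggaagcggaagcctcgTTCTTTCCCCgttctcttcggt
The runs were 6 bases long in Rps2, 3 in Rpl7l1, 20 in Rpl27a, 3 in Rpl41, 14 in Rpl14 and 10 in Rpl38. Runs of 3 bases, too short to be called a tract, stood at both ends of the range of ratios, as did runs of 10 or more. The annotated start was taken as given, so a short run does not show that a messenger RNA lacks the tract. At the low end the long run was that of Rpl27a, whose mean rests on 2 features that disagreed.

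With the features of a gene averaged, none of the 72 was 2-fold from vehicle with any drug. Farthest from vehicle were Rps2 at -0.90 under chlorpromazine and Rpl27a at -0.89 under thioridazine. There 1 of the 2 features of Rpl27a stood at -1.81. Over all genes, 0.795% were at least 2-fold above and 0.899% below under chlorpromazine, 1.98% and 2.54% under thioridazine, 4.64% and 3.33% under olanzapine, and 1.43% and 2.31% under quetiapine. Against the low shares under chlorpromazine, a count of 0 among 72 says little about the members by itself. Shares on the other arrays were higher, most of all under olanzapine, and the count of 0 was not tested there. A threshold of 1.5-fold was passed by 2 members under chlorpromazine, Rps14 above (3.6% of all genes) and Rps2 below (3.31%). With thioridazine 1 member was below it, Rpl27a (7.36%), and 0 above (6.03%), and under quetiapine 1 was below, Rpl7l1 (7.57%), and 0 above (5.05%). With olanzapine 0 members passed it in either direction, where 9.13% of all genes lay above and 8.31% below.

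The spread among the members was nearly the same on the 4 arrays, while that of all genes was not. The standard deviation of the log2 ratio over the 72 genes was 0.23 under chlorpromazine, 0.21 under thioridazine, 0.21 under olanzapine and 0.21 under quetiapine. Over all genes it was 0.33, 0.47, 0.59 and 0.43 in the same order. By this measure the members' values were narrower than those of all genes, least so under chlorpromazine and most so under olanzapine. Within a log2 distance of 0.3 from vehicle lay 59 members under chlorpromazine, 63 under thioridazine, 61 under olanzapine and 62 under quetiapine. The shares of all genes within that distance were 77.6%, 65.3%, 62.6% and 67.3%, against 81.9%, 87.5%, 84.7% and 86.1% of the members. Under chlorpromazine the order turned at shorter distances, with 58.3% of members and 63.9% of all genes within 0.2, and the median absolute log2 ratio was larger for the members, 0.152 against 0.137. On the other arrays that median was smaller for the members, 0.139 against 0.206 under thioridazine, 0.124 against 0.210 under olanzapine and 0.115 against 0.192 under quetiapine. Spots of 1 accession repeated 10 or more times on an array, none of them of a ribosomal protein gene, had a median standard deviation of 0.06, 0.16, 0.16 and 0.10. Since the table gives no signal, the part that brightness has in the narrow spread was not tested.

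**Figure D1:**
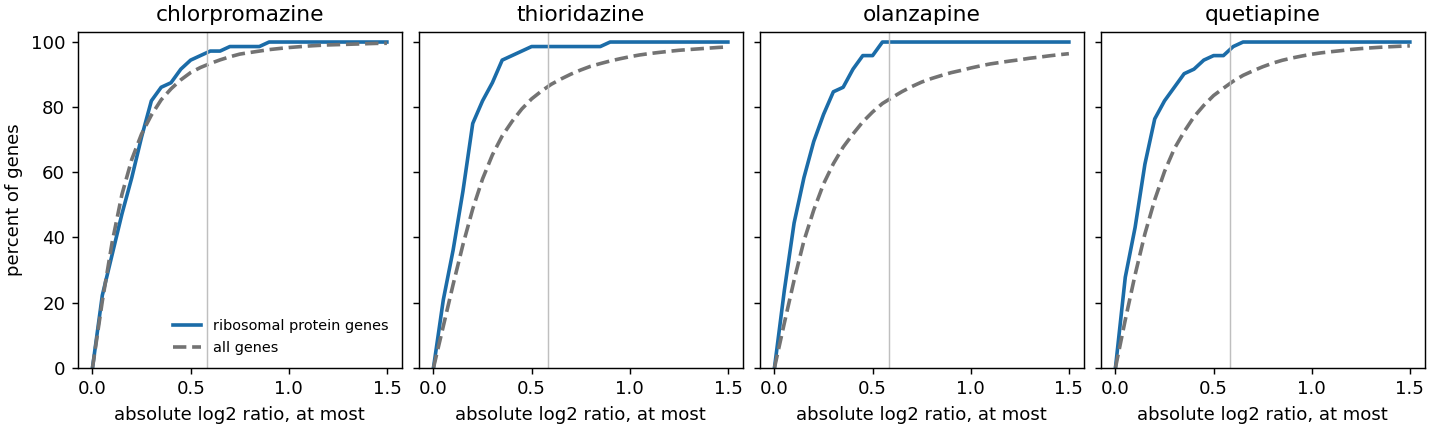
The horizontal axis gives the distance from vehicle as the absolute log2 ratio and the vertical axis the percent of genes within it, for the 72 ribosomal protein genes (solid) and all genes (dashed), with 1 panel per array and a grey line at 1.5-fold. The 2 curves run close together and cross under chlorpromazine, with 58.3% of members and 63.9% of all genes within 0.2 and 81.9% and 77.6% within 0.3, while with the other drugs the members reach high percentages at shorter distances than all genes.

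The chlorpromazine array was the one on which the members as a whole lay to one side. Their median log2 ratio there was -0.13, and 58 of 72 were below 0, against 48.6% of all genes. With thioridazine the median was 0.024 and 34 members were below 0 (49.1% of all genes). With olanzapine it was 0.046 with 28 below 0 (47.8%), and under quetiapine -0.0085 with 37 below 0 (49.1%). The median of all genes was between 0.0059 and 0.015 on the 4 arrays. The offset on the chlorpromazine array rests on 1 array, so it could not be tested.

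Large and small subunit genes were compared on each array. With chlorpromazine the median was -0.07 for the 45 large subunit genes and -0.16 for the 26 small subunit genes. Of these, 34 (75.6%) and 23 (88.5%), respectively, lay below 0, against 80.6% of all members and 48.6% of all genes. The medians were 0.0056 and 0.031 under thioridazine, and 0.063 and 0.0071 under olanzapine. With quetiapine they were -0.0022 and -0.0023. The large minus small difference was thus 0.091 under chlorpromazine, -0.025 under thioridazine, 0.056 under olanzapine and 9.63e-05 under quetiapine, with a mean of 0.031 ± 0.053 (SD, n = 4 arrays). Its sign was not the same on all arrays, its mean was smaller than its spread between arrays, and the ranges of the 2 sets of genes overlapped on every array. Without the chlorpromazine array the mean difference was 0.010.

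**Figure D2:**
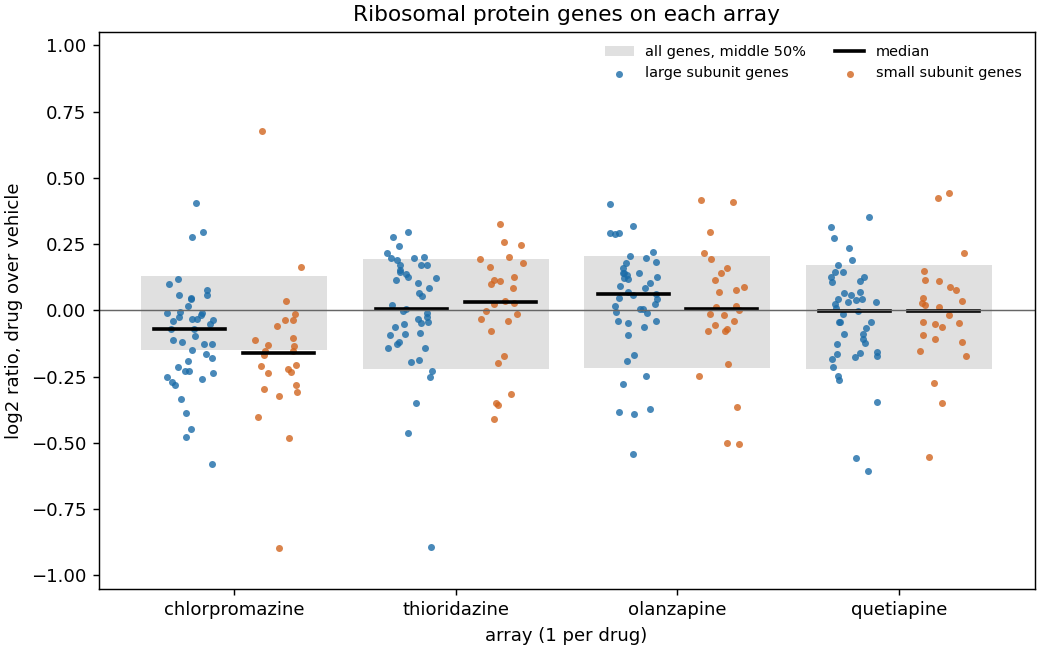
Each point is a gene, with the log2 ratio of drug over vehicle on the vertical axis and the 4 arrays along the horizontal axis. Blue points are large subunit genes, orange points small subunit genes, black bars their medians and grey bands the interquartile range of all genes. With chlorpromazine both medians lie below 0, at -0.07 and -0.16, and on the other arrays between -0.0023 and 0.063.

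The lowest and the highest mean of all members were those of the small subunit genes Rps2 and Rps14. Rps2, which lines the channel where messenger RNA enters, stood at -0.90 under chlorpromazine, -0.41 under thioridazine, -0.013 under olanzapine and -0.55 under quetiapine. Its mean of -0.47 (SE 0.15, limma adjusted p = 0.157) was the lowest of the members, and the olanzapine array alone was near vehicle. Rps9, a neighbour of Rps2 at that channel, had -0.32, -0.35, -0.50 and 0.013 in the same order of drugs, so that there quetiapine was the array near vehicle. Rps3, which also lines the entry channel and is the other member on the list of that channel, was at -0.40, -0.032, 0.14 and 0.077, with a mean of -0.053. Rps14, a protein of the platform near the messenger RNA exit, stood at 0.68, 0.33, -0.018 and 0.45. Its mean of 0.36 (SE 0.13, limma adjusted p = 0.169) was the highest of the members. Again the olanzapine array stood near 0 and the other 3 lay apart from it, on the opposite side from Rps2.

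Among other small subunit proteins the order of the drugs differed from gene to gene. Rps15, in the head of the subunit with a tail that reaches towards the decoding site, was at -0.48 under chlorpromazine, 0.026 under thioridazine, 0.41 under olanzapine and 0.22 under quetiapine. It ran from the lower to the upper end of the members, with a standard deviation over arrays of 0.38 and a mean of only 0.043. Rps26, at the messenger RNA exit, followed the same order of drugs, with -0.15, 0.11, 0.42 and 0.046, except that quetiapine lay below thioridazine. Rps19, the protein most often mutated in human Diamond-Blackfan anaemia, was at -0.31, -0.076, -0.078 and 0.43, and only quetiapine stood above 0. Rps24, another gene of that anaemia, was at -0.23, -0.038, -0.50 and -0.35, below 0 throughout. A list of genes mutated in that anaemia held 9 that were measured. Of these, 7 lay below 0 under chlorpromazine, 3 under thioridazine, 4 under olanzapine and 4 under quetiapine. In the same order, 80.6%, 47.2%, 38.9% and 51.4% of all 72 members lay below 0, and 48.6%, 49.1%, 47.8% and 49.1% of all genes. The list's medians were -0.15, 0.11, 0.026 and 0.032.

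In the large subunit, the stalk recruits the elongation factors. Rplp0, the base of the stalk, was at -0.0091 under chlorpromazine, 0.19 under thioridazine, 0.18 under olanzapine and 0.042 under quetiapine, as the mean of 2 features that differed by at most 0.16. Rplp1, carried on that base, was at -0.13, -0.043, -0.063 and -0.089, and its standard deviation over arrays of 0.036 was among the smallest. Rpl12, which binds beside the stalk, was at -0.096, -0.052, 0.40 and 0.15. Both phenothiazine arrays thus lay below 0 for Rpl12 and both other arrays above. Chlorpromazine was the lowest array for all 3 genes, and thioridazine was the highest for Rplp0 and Rplp1 but not for Rpl12. A low chlorpromazine value was not particular to the stalk, since 80.6% of all members lay below 0 there, against 48.6% of all genes. Rplp2, the other stalk gene of the naming rule, was not among the members.

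Rpl5 and Rpl11 join the small ribosomal RNA of the large subunit in a particle that, when free, binds the p53 regulator Mdm2. Rpl5 was at 0.41 under chlorpromazine, 0.11 under thioridazine, -0.19 under olanzapine and -0.015 under quetiapine. Rpl11 was at -0.23, 0.22, -0.39 and 0.35. The pair lay on opposite sides of 0 under chlorpromazine and quetiapine, and on the same side under thioridazine and olanzapine. Around the peptidyl transferase centre, Rpl3, whose extension reaches it, was at 0.28, -0.14, -0.37 and -0.13, and Rpl10, added late in assembly, at -0.58, -0.35, -0.011 and -0.18. Chlorpromazine was the highest array for Rpl3 and the lowest for Rpl10. For 8 measured proteins of the wall and rim of the exit tunnel, the medians were -0.14, 0.076, 0.14 and 0.049.

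Among other large subunit members, Rpl7a was at -0.041 under chlorpromazine, -0.46 under thioridazine, -0.54 under olanzapine and -0.16 under quetiapine, and so was lowest on the 2 arrays where Rps2 was least low. Rpl27a was at -0.18, -0.89, 0.29 and -0.56, the widest spread of the members (standard deviation 0.51). Its value rests on 2 features that disagreed: under thioridazine the one designed on the RefSeq messenger RNA stood at 0.028 and the one designed on another cDNA at -1.81. With quetiapine they stood at -0.90 and -0.21. The other 4 members with 2 features, Rpl30, Rplp0, Rps12 and Rps18, had gaps of up to 0.28, 0.16, 0.34 and 0.49. Of the 72 members 67 had 1 feature and so no such check, and ribosomal protein genes have many processed pseudogenes whose transcripts could share a probe.

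The 4 highest means of the large subunit were those of Rpl32, Rpl38, Rpl14 and Rpl41, with standard deviations over the arrays of 0.10, 0.091, 0.16 and 0.069, against a median of 0.14 over all members. Rpl32 was at 0.078 under chlorpromazine, 0.28 under thioridazine, 0.13 under olanzapine and 0.27 under quetiapine. Rpl38, which in mice is needed for the translation of Hox messenger RNAs, was at 0.12, 0.17, 0.12 and 0.31. All 8 of these values were above 0 and under 1.5-fold. Rpl14 was at -0.070, 0.20, 0.29 and 0.24, and Rpl41, the shortest of the proteins, at 0.057, 0.15, 0.22 and 0.17. Rpl13a, which in human myeloid cells can leave the ribosome and silence inflammatory messenger RNAs, was at -0.13, 0.30, -0.091 and -0.042, with the thioridazine value alone above 0. Rpl35a varied least, with values from -0.016 to 0.032.

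Paralogues and the non-subunit member did not share a common level. Rpl7l1, a relative of Rpl7 found in human pre-ribosomes, was at -0.45 under chlorpromazine, -0.19 under thioridazine, -0.38 under olanzapine and -0.60 under quetiapine. Rpl7 itself lay between -0.16 and 0.057, so the ranges of the 2 genes over the arrays did not overlap. Rps19bp1, known as a regulator of the deacetylase Sirt1, was at -0.54, -0.34, -0.10 and -0.46. Both were below 0 on each array and were among the 5 lowest means. Rpl22l1, the paralogue of Rpl22, was at -0.48, 0.17, -0.0048 and -0.25. Rpl36al was at -0.19, -0.010, 0.12 and -0.21, Rpl39l, which is rich in testis, at -0.033, -0.032, 0.048 and 0.12, and Rps27l, a p53 target, at -0.058, 0.10, 0.014 and -0.053. The value farthest from vehicle among those last 3 genes was the -0.21 of Rpl36al.

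**Figure D3:**
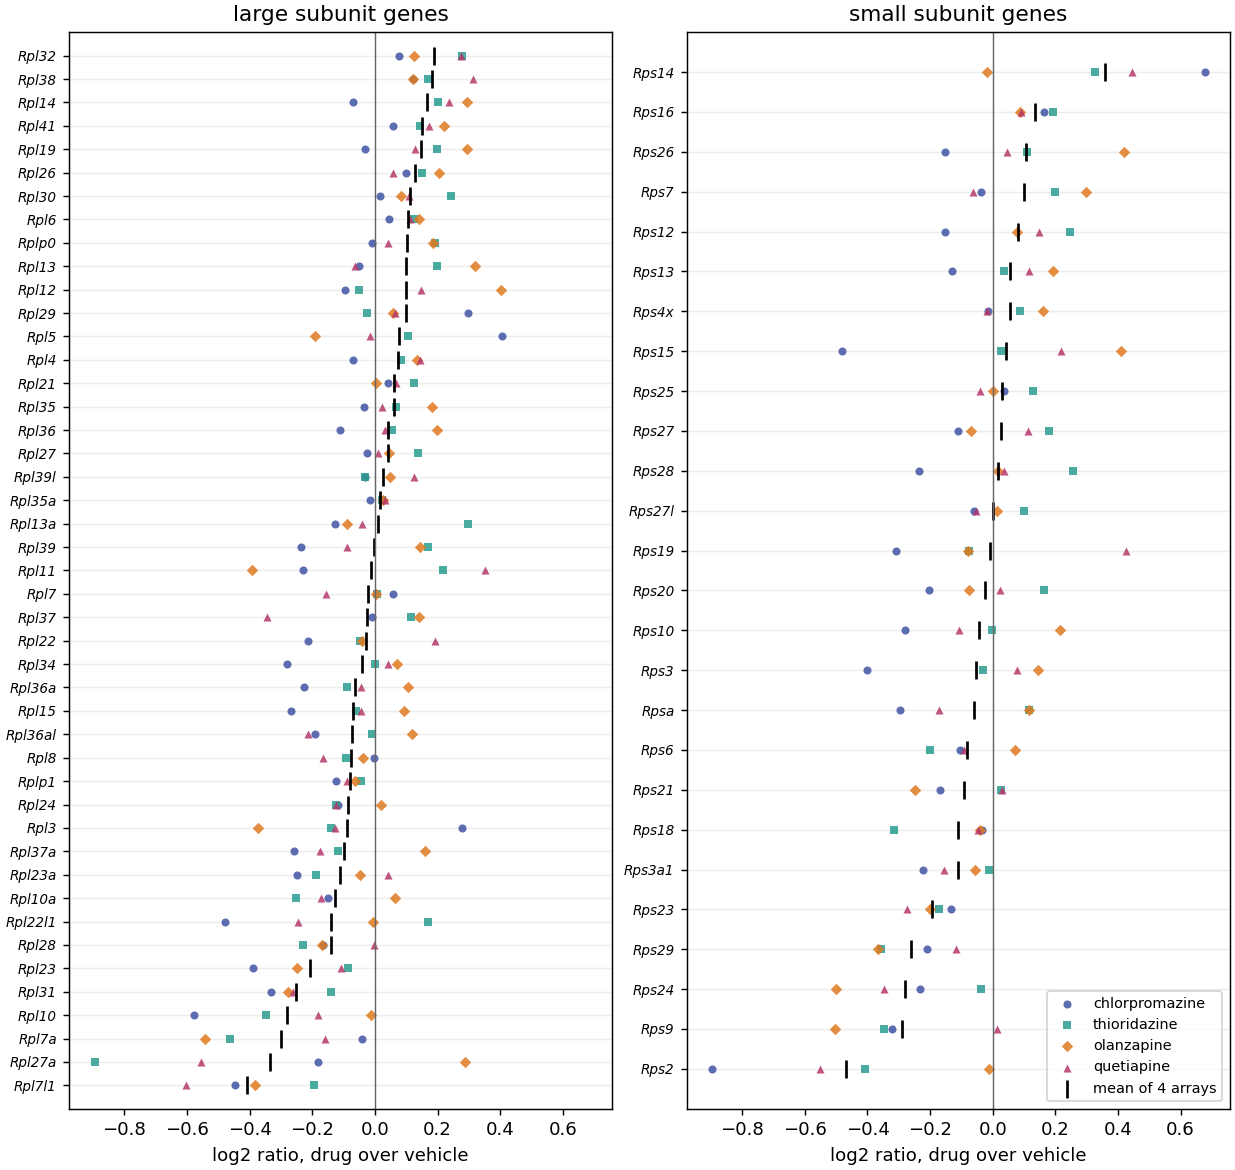
Each row is a gene, ordered by its mean over the 4 arrays (black tick), with large subunit genes on the left and small subunit genes on the right and Rps19bp1 left out. The horizontal axis is the log2 ratio of drug over vehicle, and colour and shape give the drug. Means run from -0.41 to 0.19 on the left and from -0.47 to 0.36 on the right, and for many genes the chlorpromazine point is the leftmost.

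The change shared by the drugs was tested as each gene's 4-array mean in limma, a linear model that moderates each gene's variance, adjusted by Benjamini-Hochberg over all 16139 genes measured on all arrays. The 4 drugs stand in for replicates there. The p-values rest on the spread from array to array only, the arrays may share vehicle RNA, and a dye bias would pass as a change. Of the 72 members 0 passed at an adjusted p under 0.05, where 0.149% of all genes did. The smallest limma adjusted p was 0.103, that of Rpl7l1, whose mean was -0.41 (SE 0.085). At an unadjusted p under 0.05 there were 14 members, 11 with a mean below 0 (14.2% of all genes) and 3 above (11.9%), together 19.4% of members against 26.2% of all genes. Of these 14, 7 were large subunit genes and 6 small subunit genes, and the other was Rps19bp1.

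The intervals of the means bounded the size of a shared change only against the spread from array to array. An error of vehicle RNA or dye common to the arrays would move a mean without widening its interval. The means ran from -0.47 to 0.36, with a median of -0.018, against 0.0053 over all genes. For all 72 members the 95% interval of the mean lay within 2-fold of vehicle, as it did for 89.6% of all genes. The median half-width of that interval was 0.20 for the members and 0.23 for all genes. The interval of Rps2 reached from -0.86 to -0.073 and that of Rps14 from 0.034 to 0.68, with no adjustment for the number of genes. Without the chlorpromazine array the median of the members' means was 0.034, on the other side of 0.

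The phenothiazines chlorpromazine and thioridazine share a ring system and were given at the same dose in mg/kg for the same number of days, so their arrays could be set against each other for each gene. Chlorpromazine was the lower of the 2 arrays for 56 of 72 members, where 52.9% of all genes were lower. The median difference, chlorpromazine minus thioridazine, was -0.16, against -0.019 over all genes. It was -0.14 for large and -0.20 for small subunit genes. The lowest difference was that of Rpl22l1 at -0.65, followed by Rps15 at -0.51, and the highest that of Rpl27a at 0.71, whose features disagreed. With 1 array per drug these differences have no test.

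The drugs were also compared by class, phenothiazines minus the pair of drugs grouped here as azepines (olanzapine with quetiapine), at 2 arrays per class. The doses in mg/kg differ between the classes and within the second one. With limma 0 members passed, as did 0 of all 16139 genes (0%), and at an unadjusted p under 0.05 there were 0 members against 2.84% of all genes. Rps15 had the lowest difference, -0.54 (95% interval -1.19 to 0.11, limma adjusted p = 0.999). Next were Rpl27a at -0.40, Rps2 at -0.37 and Rpl10 at -0.37. Rpl5 had the highest at 0.36 (95% interval -0.13 to 0.85), followed by Rpl3 at 0.32, Rps24 at 0.29 and Rps14 at 0.29. The median half-width of the interval, which is not adjusted for the number of genes, was 0.44 for members. Class differences under about that size could therefore not be resolved for a typical member. The limit of the adjusted test was higher, since 0 genes passed though differences over all genes ran from -4.72 to 3.43. For 68 of 72 members the interval lay within 2-fold, as it did for 74% of all genes, which bounds but does not exclude a difference. The median difference of the members was -0.053, against -0.0057 over all genes, and it was 0.0032 without the chlorpromazine array and -0.12 without the thioridazine array.

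Genes of the same pathway were taken from lists written from general knowledge. Mitochondrial ribosomal proteins, encoded in the nucleus and built into the ribosome of that organelle, are the nearest family to compare with. The median of the 76 genes was below 0 on each array, at -0.15 under chlorpromazine, -0.16 under thioridazine, -0.055 under olanzapine and -0.13 under quetiapine, and 57, 66, 43 and 57 of them lay below 0, against 48.6%, 49.1%, 47.8% and 49.1% of all genes. Of these genes 0 passed in limma. At an unadjusted p under 0.05 there were 23 of 76, where 26.2% of all genes lay. All 23 had a mean below 0, as 14.2% of all genes had at that threshold. Mrpl47 had the lowest mean, -1.12 (SE 0.16, limma adjusted p = 0.0673), and Mrpl15 the highest, 0.28. The difference between the 2 families was not tested.

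Initiation factors, which bring the subunits to messenger RNA, had medians of -0.035, -0.12, -0.076 and -0.066 over 36 genes. Eif4a2, a form of the initiation helicase that is abundant in brain, had their lowest mean at -0.49 and Eif4ebp1, which blocks the cap-binding factor, their highest at 0.30. Elongation and release factors had medians between -0.044 and 0.068 over 14 genes. There Eef2k, the kinase that inhibits elongation factor 2, had values of 0.65, 0.46, 0.47 and 0.43 which average 0.50 (SE 0.066, limma adjusted p = 0.0656), and Eef1e1 had the lowest mean, -0.27. Eef2k was thus above every ribosomal protein gene in its mean, but it did not pass.

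Ribosome biogenesis factors, 42 genes, had medians of 0.0091, -0.079, -0.036 and -0.16. Dkc1, which guides pseudouridine formation in ribosomal RNA, stood at -0.86, -1.18, -1.28 and -1.41, which average -1.18 (SE 0.10, limma adjusted p = 0.0551). Nhp2, its partner in the same particle, had the highest mean of the list at 0.55. These partners therefore lay on opposite sides of 0 on every array but quetiapine, where Nhp2 was at -0.42. S6 kinases and mTOR pathway genes, 17 in all, had medians of -0.044, -0.18, -0.25 and -0.14. Rptor, a subunit of mTOR complex 1, had their lowest mean at -0.96, with -2.32 under quetiapine, and Ddit4, an inhibitor of mTOR, their highest at 0.50, with 1.13 under quetiapine. Of 4 ribosome-linked genes outside the symbol rule, Fau, which is processed to a small subunit protein, had a mean of 0.016 and Naca, which binds nascent chains, of -0.20. In limma 0 genes of these 5 lists passed either test. At an unadjusted p under 0.05 for the shared mean there were 12 of 36 initiation factors, 5 of 14 elongation and release factors, 7 of 42 biogenesis factors, 8 of 17 genes of the mTOR list and 1 of 4 ribosome-linked genes, to be read against the 26.2% of all genes.

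**Figure D4:**
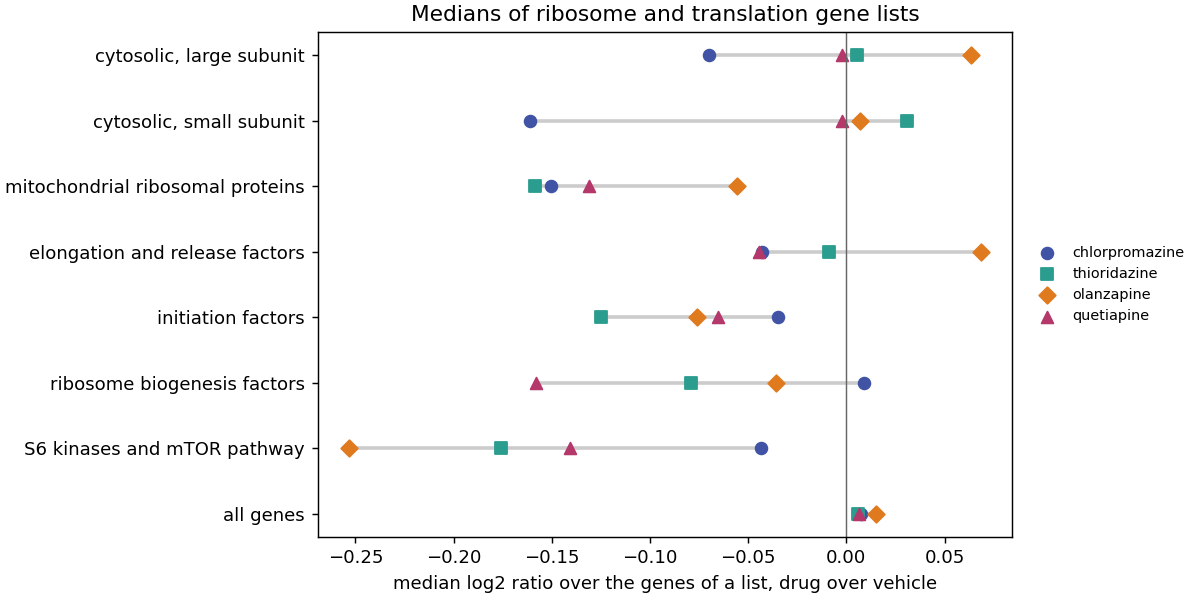
Each row is a list of genes and each symbol its median log2 ratio of drug over vehicle on 1 array, with a grey line joining the lowest and highest. The medians of both cytosolic subunits lie on both sides of 0, those of the mitochondrial ribosomal proteins from -0.16 to -0.055, and those of all genes between 0.0059 and 0.015.

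Markers of cell types that cortex tissue can hold also shifted between arrays. With chlorpromazine, microglia markers had a median of -0.44, with 9 of 11 below 0, against 48.6% of all genes. Astrocyte, oligodendrocyte and endothelial and pericyte markers had 0.21, 0.17 and 0.19 there, and neuron markers 0.083. Over the 4 arrays the medians ran from -0.44 to 0.30 for microglia, from -0.25 to 0.083 for neurons, from -0.10 to 0.21 for astrocytes and from -0.011 to 0.17 for oligodendrocytes. They ran from 0.0019 to 0.19 for endothelial cells and pericytes and from 0.10 to 0.21 for choroid plexus. For 4 red blood cell genes they ran from -1.30 to 1.03, and for 10 neutrophil genes from -0.049 to 1.79. The part of these shifts in the ribosomal protein ratios was not tested.

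Sequence features that the rule did not use were counted in the RefSeq promoter table. It covers 250 bases before to 50 after an annotated start and held 59 of the 72 members and 27025 genes in all. A gene with several annotated starts was counted where any of them had the feature. A run near the start need not be the terminal oligopyrimidine tract. A run of at least 8 C or T within 20 bases of the start, as in Rpl14 and Rpl38 above, was present in 45.8% of the members, 17.6% of mitochondrial ribosomal protein genes and 18.4% of all genes. It was found in 48.6% of large and 43.5% of small subunit genes. The letters CCGGAA on either strand, the core bound by Ets factors, of which one is seen before the start of Rpl38, were in 55.9% of members, 57.4% of mitochondrial ribosomal protein genes and 16.7% of all genes. ATGGCG on either strand was in 33.9% of members, 27.9% of mitochondrial ribosomal protein genes and 10.2% of all genes, and TATAAA in 11.9%, 5.88% and 15.7%. Among the 13223 genes of the array with a promoter in the table, the run was in 19%, CCGGAA in 23.8%, ATGGCG in 13.8% and TATAAA in 13.2%. The reverse complement of CCGGAA holds 4 pyrimidines in a row and can overlap a run.

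The 27 members with a run had median ratios of -0.11, 0.085, 0.070 and -0.042 in the order chlorpromazine, thioridazine, olanzapine and quetiapine. The 32 members without one had -0.18, -0.011, 0.076 and -0.0039. The members with a run thus had the higher median with the phenothiazines and the lower one with the other drugs, though the olanzapine medians were nearly equal. On every array the difference was smaller than the standard deviation over all members, which was 0.21 to 0.23. These differences were not tested.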

How the data were processed

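Frontal cortex RNA of drug- and vehicle-injected mice was hybridised to Agilent mouse oligonucleotide arrays. Per the labels' protocols, Feature Extraction 7.1 gave the ratios, and LOWESS on rank-consistent features balanced the dyes. The authors deposited 1 value per feature and array, taken here as a log10 ratio; its scale, direction and centring are not stated. The deposited log10 values had a median of 0.00376 under olanzapine and 0 for each other drug. The small number of arrays limits precision.

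Exact zeros were treated as missing, ratios put on the log2 scale and each gene's features averaged, after symbols were updated by Entrez identifier. No member had an exact 0. Tests used limma 3.58.1 in R 4.3.3, over 16139 genes. A check on simulated data required only that the mean estimates match the added changes. Its arrays held no common error of vehicle or dye, so it is no check of the p-values. The named members are those with the 5 highest and lowest means, the 4 highest and lowest class differences, the 2 highest and lowest on each array, the stalk, Rpl5 and Rpl11, paralogues and Rps19bp1. Rpl7, Rpl35a and Rps3 were named after their values were seen. Of other lists, the highest and lowest means are named. Members, lists and rules were chosen with earlier results of these data known. Alternatives were another log base, zeros kept, features kept apart or summarised by their median, arrays centred, scaled or left out in turn, robust or no variance moderation, members by current symbol, paralogues left out and a fold of 1.5.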

Additional observations from a re-analysis of the deposited data

Results flagged for a closer look

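For 3 of the 27 members named by rule, both phenothiazine arrays lay on one side of 0 and both other arrays on the other. Rps3, named after its values were seen, had the same pattern, with a class difference of -0.33. Some genes, Rpl5 among them, were named for their class difference, and the same count over all genes was not made. Rpl12 differed by -0.35 (phenothiazine minus azepine mean, limma adjusted p = 0.999), Rpl39l by -0.12 (limma adjusted p = 0.999) and Rpl5 by 0.36 (limma adjusted p = 0.999). None passed the class test. Neither a named member nor a median over the members or subunits had 1 array standing apart from the other 3 by Dixon's gap criterion. The small subunit medians came just short of it, at -0.16 under chlorpromazine and between -0.0023 and 0.031 on the other arrays.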

How the results depend on the processing

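In the 14 alternative settings with test results, 1 of them with an ordinary t statistic, 0 members passed the test of the shared mean. The lowest adjusted p of a named member was 0.0966 (limma, arrays centred). Where each class kept its 2 arrays, 0 members passed the class test. Members by current symbol and paralogues left out took their p-values from the main fit. Another log base cannot change a p-value, so these settings add no check of the tests. The medians over members and the large minus small difference moved by less than their spread between arrays; with 1 array left out, the shared median ran from -0.049 to 0.034, the class median from -0.12 to 0.0032 and the subunit difference from 0.010 to 0.049. Members 2-fold from vehicle numbered 1 with chlorpromazine when arrays were scaled to one spread, and 1 with thioridazine when features were kept apart (the second feature of Rpl27a). At 1.5-fold they numbered 2, 1 and 1 with chlorpromazine, thioridazine and quetiapine. Of 372 alternative means of named members 18 changed sign, all of genes whose means lay between -0.091 and 0.10. With arrays centred Rps27l was at -0.0082, and with arrays scaled it was at -0.0074, Rpl13a at -0.0012 and Rps15 at -0.026. With 1 array left out, means ran from -0.13 to 0.11 for Rpl11, -0.00055 to 0.17 for Rpl12, -0.087 to 0.055 for Rpl13a, -0.21 to 0.0032 for Rpl3, -0.0060 to 0.047 for Rpl39l, -0.033 to 0.17 for Rpl5, -0.079 to 0.22 for Rps15, -0.15 to 0.090 for Rps19 and -0.032 to 0.020 for Rps27l. The cause was not tested. No paired analysis was possible because each drug has 1 array. The files hold no signal, so dim probes could not be set apart.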
